A study of Mus musculus with 6 samples.

Results

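The 10 genes described here encode proteins that coat lipid droplets or set the rate at which their triglyceride is broken down: Plin2, Plin3, Plin4, Plin5, Cideb, Cidec, G0s2, Pnpla2, Abhd5 and Hsd17b13. They were chosen by symbol from a table of 54232 genes, each symbol matched 1 row, and all 10 passed the filter on low counts that left 13304 genes for testing. RNA sequencing was used to read gene expression in livers of 3 knockout mice (Nogo-/-) and 3 wild-type littermates (WT), all 8 weeks old and fed normal chow. Nogo is the product of Rtn4, a reticulon that curves the membrane of the endoplasmic reticulum, and the labels give neither the sex of the mice, nor the design of the allele, nor whether the loss is limited to a cell type. The libraries are named by the numbers in their labels, wild type 2, 4 and 11 and knockout 1, 2 and 4.

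A lipid droplet is a store of triglyceride and cholesteryl ester that buds from the endoplasmic reticulum and is wrapped in a single layer of phospholipid. Perilipins (the Plin genes) cover that layer and gate the access of lipases, while CIDE proteins sit where droplets touch and pass lipid from one to another or, in the hepatocyte, load lipid onto very low density lipoprotein. Adipose triglyceride lipase (ATGL, gene Pnpla2) makes the first cut in triglyceride, ABHD5 (also called CGI-58) activates it and G0S2 inhibits it. Fatty liver is known for high perilipin 2 and HSD17B13 protein.

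Of the 10 genes, G0s2 rose and Hsd17b13 fell in knockout liver, and the other 8 did not pass the test (edgeR quasi-likelihood test, Benjamini-Hochberg adjusted p under 0.05 over all tested genes). Over all tested genes 17.0% passed in either direction, 8.76% as rises and 8.29% as falls, so 2 of 10 is near the background share. In 6 of the 10 genes the levels of the 2 genotypes were separate, without overlap, 4 lower and 2 higher in knockout, where 38.9% of all tested genes had such separate groups (19.2% lower and 19.7% higher). The median log2 fold change of the 10 genes was −0.14, against 0.012 over all tested genes.

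The sequences upstream of 4 of the genes are shown first, because these are the gene that rose and the 3 with separate groups and the largest differences in the other direction. Each is a run of up to 250 bases before the RefSeq start of the gene, read 5′ to 3′ on the gene's own strand, in build GRCm38.p6 (the assembly called mm10). The outermost start in GENCODE M21, the annotation used for gene coordinates, lies further upstream, so the last 29 bases shown for G0s2, the last 22 for Hsd17b13 and the last 1 for Plin2 lie inside the GENCODE gene. For Cideb 34 such bases are left out, and the 216 bases shown end just before the GENCODE start. Capitals mark matches, on either strand, to any of 7 motifs. The first is the nuclear receptor half-site, searched as AGGTCA, which occurs in 14.0% of 32851 promoter windows of the same length. The second is the GC box, searched as GGGCGG and present in 32.7% of those windows. The third is the TATA box, searched as TATAAA and present in 12.4% of them. The fourth is the CCAAT box, searched by those letters, with 33.8% of windows. The other motifs are the E-box, searched as CACGTG (6.02% of windows), the cAMP response element, searched as TGACGTCA (1.55%), and the forkhead site, searched as TGTTTAC (3.17%).
G0s2, chr1:193273189-193273438, minus strand: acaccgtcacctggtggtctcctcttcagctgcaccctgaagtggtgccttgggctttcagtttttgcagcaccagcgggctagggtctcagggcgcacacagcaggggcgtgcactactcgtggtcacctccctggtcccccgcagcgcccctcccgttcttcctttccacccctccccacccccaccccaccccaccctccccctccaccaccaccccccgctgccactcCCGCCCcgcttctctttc
Hsd17b13, chr5:103977389-103977638, minus strand: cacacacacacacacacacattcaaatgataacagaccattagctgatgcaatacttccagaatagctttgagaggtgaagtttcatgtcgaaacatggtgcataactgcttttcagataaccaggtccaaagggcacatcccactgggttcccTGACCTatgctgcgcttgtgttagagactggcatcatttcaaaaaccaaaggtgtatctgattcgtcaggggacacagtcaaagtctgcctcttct
Plin2, chr4:86670060-86670309, minus strand: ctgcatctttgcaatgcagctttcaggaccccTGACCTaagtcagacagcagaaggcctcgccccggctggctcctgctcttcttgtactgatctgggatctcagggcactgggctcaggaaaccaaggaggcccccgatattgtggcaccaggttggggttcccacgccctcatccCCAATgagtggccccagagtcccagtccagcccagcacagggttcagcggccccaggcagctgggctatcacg
Cideb, chr14:55758459-55758674, minus strand: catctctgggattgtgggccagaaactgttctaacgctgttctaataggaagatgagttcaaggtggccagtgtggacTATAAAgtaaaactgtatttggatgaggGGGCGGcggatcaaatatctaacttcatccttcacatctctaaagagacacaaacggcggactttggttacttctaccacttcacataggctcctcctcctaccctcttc
Positions in the 250 bases are counted back from the RefSeq start, which for Cideb lies 34 bases past the end of the sequence shown. G0s2 held 1 GC box, on the opposite strand from 18 to 13 bases before the RefSeq start and so inside the GENCODE gene, in a window of 67.2% GC. Hsd17b13 held 1 nuclear receptor half-site on the opposite strand, from 96 to 91 bases before the start, and Plin2 held 1 from 218 to 213 bases before it, with a CCAAT box nearer the start. Cideb held a TATA box match from 172 to 167 bases and a GC box from 144 to 139 bases before the start. Genes not shown held some of these motifs as well. The nuclear receptor half-site also occurred in the windows of Plin5 and Abhd5, which did not pass the test. The GC box also occurred in those of Plin3, Plin5, Pnpla2 and Abhd5, and the CCAAT box in those of Plin3, Plin4 and Plin5. The E-box, the cAMP response element and the forkhead site had 0 matches in the windows of the 10 genes.

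Levels are given as CPM, a gene's counts relative to the size of its library after TMM scaling, and log2 fold changes as knockout over wild type with their standard error (SE). Library totals ran from 17568223 to 20902369 counts, and Rtn4 was at 40.5 to 56.0 CPM in wild type and 4.63 to 8.22 CPM in knockout, so each library carried the Rtn4 level of its label. Mitochondrially encoded genes held 6.17% to 6.90% of each wild-type library and 28.6%, 19.7% and 11.8% of knockout 1, 2 and 4, and the first principal component, with 64.9% of the variance, put knockout 4 nearest to wild type. Short transcripts rose more often than long ones: of the genes with exon lengths of 57 to 2089 bases (G0s2, Cideb, Cidec and Plin5 among them) 16.3% rose and 6.99% fell, and of those from 7295 bases up 4.85% rose and 9.25% fell. Hepatocyte marker genes of the fixed list summed to 105696 to 124258 CPM in wild type and 88200 to 129736 CPM in knockout. Alb was the largest part of these sums, with means of 66835 and 60726 CPM. Of 11 tested hepatocyte markers 1 rose, Serpina1c from 1019 to 2923 CPM, and 1 fell, Cps1 from 2922 to 1016 CPM. Of the other cell types, 8 of 12 tested lymphocyte markers rose and 0 fell (7.31 to 10.6 CPM summed in wild type, 19.9 to 37.9 CPM in knockout), and 3 of 4 neutrophil markers rose and 0 fell (3.94 to 5.90 against 10.6 to 26.1 CPM). Sinusoidal endothelial markers had 5 falls and 0 rises among 12 (272 to 350 against 168 to 286 CPM). Kupffer cell and macrophage markers had 1 fall and 0 rises among 12, and cholangiocyte markers 1 fall and 0 rises among 8. The part of these differences in the results below was not tested, apart from the fits named there.

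**Figure D1:**
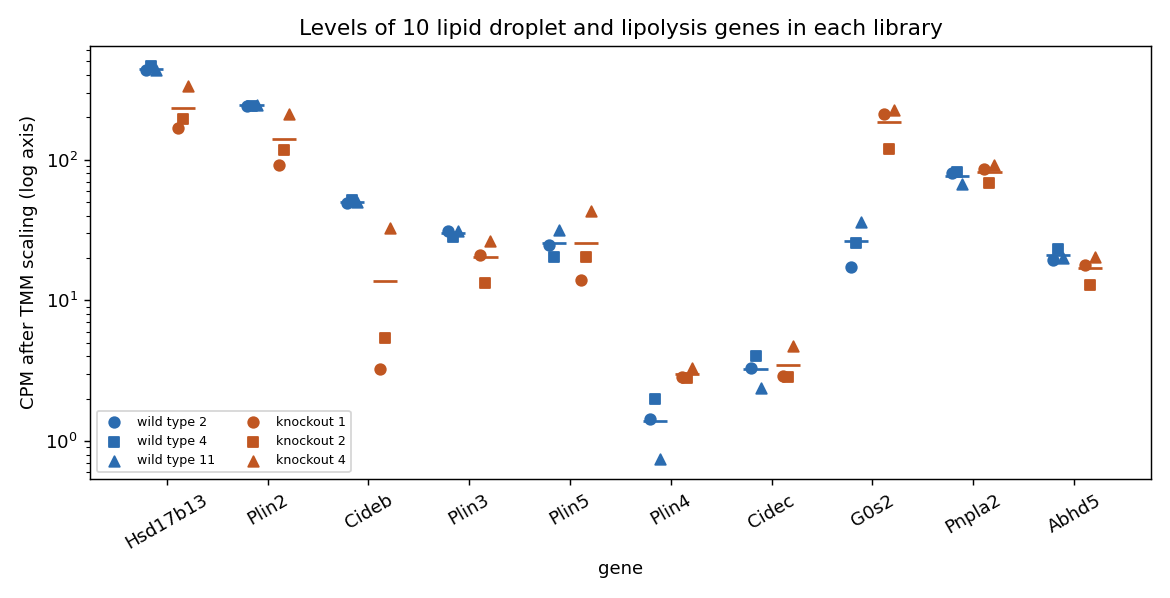
Level of each of the 10 genes in CPM after TMM scaling (log axis) in the 3 wild-type (blue) and 3 knockout (orange) livers, with 1 point per library and a line at the mean of each genotype. G0s2 lies higher in all 3 knockout libraries (120 to 224 CPM against 17.3 to 35.9 CPM), and Hsd17b13, Plin2, Cideb and Plin3 lie lower, with knockout 4 nearest to wild type in each of these 4.

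The inhibitor of lipolysis was higher in every knockout liver than in any wild-type liver. G0s2, whose small protein binds ATGL and blocks it, was at 17.3, 25.8 and 35.9 CPM in wild type 2, 4 and 11 and at 213, 120 and 224 CPM in knockout 1, 2 and 4. The lowest knockout library lay above the highest wild-type library by a wide margin. Knockout 4 had the highest level of the 3 knockout livers, as it did in each of the 10 genes. From a mean of 26.3 ± 9.34 CPM it went to 186 ± 57.4 CPM (SD, n = 3 each), a 7.04-fold rise with a log2 fold change of 2.82 ± 0.32 SE (95% interval 2.11 to 3.52, edgeR adjusted p = 0.00235). The gene (ENSMUSG00000009633) lies on chromosome 1 from 193272161 to 193273217 on the minus strand and is protein-coding. Its exons, 871 bases in all, share no 50-base word with another gene, and it lies inside the bounds of Lamb3 on the other strand without sharing exon bases with it. With length and GC trends of each library removed, an alternative chosen after the data were seen, the rise was 2.57 (edgeR adjusted p = 0.00278). It passed in each of the 6 fits that left out 1 library (2.58 to 3.10, adjusted p from 0.000589 to 0.0116) and with knockout 4 alone against wild type (3.09, adjusted p = 0.0367), where the spread comes from wild type alone. In a model that held the mitochondrial share the estimate was 2.86 ± 0.45 SE and the adjusted p was 0.18, in a fit that called 0 of 13304 genes in edgeR (1146 had an unadjusted p below 0.05; the covariate was not used in another tool).

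The lipase itself and its activator did not pass the test. Pnpla2 was at 81.0, 81.4 and 66.9 CPM in wild type and at 85.2, 67.9 and 91.3 CPM in knockout. The groups overlapped, and the log2 fold change was 0.092 ± 0.18 SE with a 95% interval of −0.31 to 0.50 (edgeR adjusted p = 0.756). Its sign changed with the scaling, to −0.099 by library totals. Abhd5 was at 19.4, 23.2 and 20.1 CPM in wild type and at 17.9, 12.8 and 20.4 CPM in knockout, groups that overlapped as well (−0.30 ± 0.21 SE, interval −0.75 to 0.16, edgeR adjusted p = 0.336). Of the 50-base words of Abhd5, 15.1% occur in other genes, among them an antisense transcript, A730085K08Rik, with 2 counts in knockout 1 and 0 in the other libraries. Pnpla2 (ENSMUSG00000025509) lies on chromosome 7 from 141455198 to 141460743, and Abhd5 (ENSMUSG00000032540) on chromosome 9 from 122351608 to 122381524, both on the plus strand.

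Ratios of raw counts within a library do not depend on scaling between libraries, so the RNA balance of inhibitor, lipase and activator was also read that way. G0s2 over Pnpla2 was 0.213, 0.317 and 0.537 in wild type 2, 4 and 11, against 2.50, 1.76 and 2.45 in knockout 1, 2 and 4. Every wild-type liver thus had fewer G0s2 than Pnpla2 counts and every knockout liver had more. Raw counts are not adjusted for exon length, 871 bases for G0s2 and 3020 for Pnpla2. In CPM divided by exon length in kb, G0s2 was at 19.8, 29.6 and 41.3 in wild type 2, 4 and 11. Pnpla2 was at 26.8, 26.9 and 22.1 there, so the ratios are read only for their change between genotypes. The mean ratio of raw counts went from 0.356 ± 0.17 to 2.24 ± 0.41 (SD, n = 3 each), 6.29 times as high. G0s2 over Abhd5 went from 0.890 to 1.79 in wild type to 9.31 to 11.9 in knockout. Abhd5 over Pnpla2 was 0.240, 0.285 and 0.301 in the wild-type livers, against 0.210, 0.189 and 0.223 in knockout, a smaller and separate step down (0.275 ± 0.032 to 0.207 ± 0.017). In all, 8 such ratios were computed, and the exact two-sided permutation test of 3 libraries against 3 cannot give a p below 0.1. Of the 8, 6 reached that smallest p of 0.1 (adjusted p = 0.133), so none passes 0.05 in this design.

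**Figure D2:**
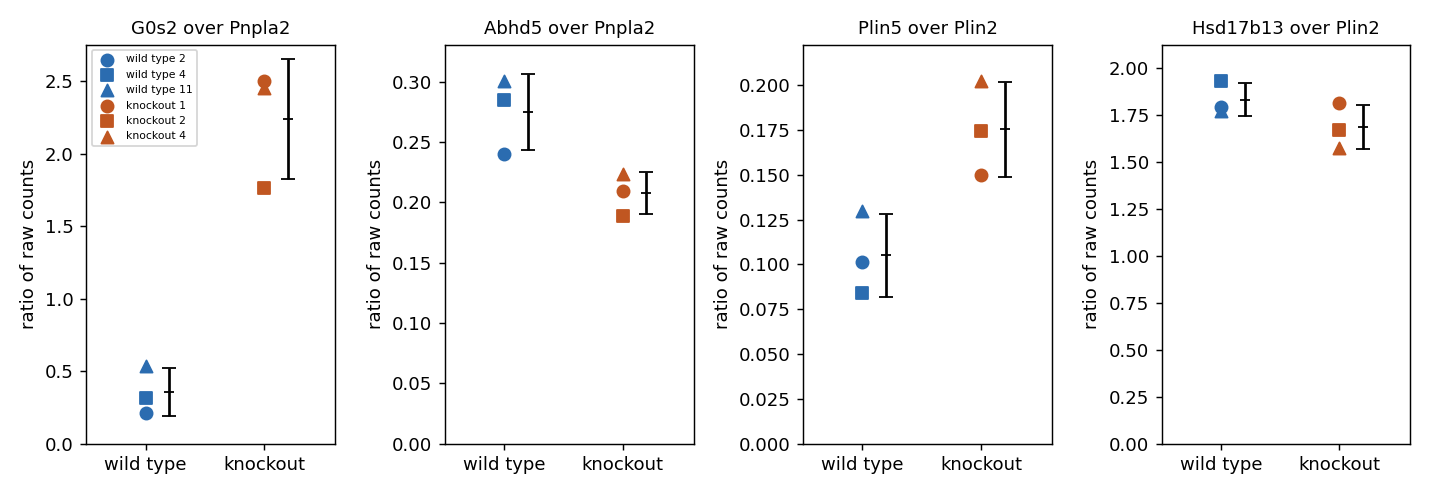
Ratio of raw counts of 2 genes in each library for 4 pairs, with 1 point per liver and the mean ± SD (n = 3) beside each genotype; the vertical axes start at 0. G0s2 over Pnpla2 is 0.213 to 0.537 in wild type and 1.76 to 2.50 in knockout, while Hsd17b13 over Plin2 overlaps between genotypes.

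Of the droplet coat genes among the 10, Hsd17b13 fell and the others did not pass the test. Hsd17b13, a retinol and steroid dehydrogenase family member that is found on hepatocyte lipid droplets, was at 436, 467 and 434 CPM in wild type and at 167, 196 and 335 CPM in knockout 1, 2 and 4. All 3 knockout libraries lay below the wild-type range, knockout 4 closest to it. The means were 446 ± 18.8 and 233 ± 89.6 CPM, a log2 fold change of −0.94 ± 0.25 SE (edgeR adjusted p = 0.032). The call was lost in 5 of the 6 fits that left out 1 library: without wild type 2, 4 or 11 the adjusted p was 0.0781, 0.101 and 0.0649, and without knockout 1 or 2 it was 0.106 and 0.103. Without knockout 4 the fall was −1.31 (adjusted p = 0.000574), and with knockout 4 alone the value was −0.41 (edgeR adjusted p = 0.233). The gene (ENSMUSG00000034528) lies on chromosome 5 from 103955440 to 103977410 on the minus strand. Its neighbour and paralog Hsd17b11, also a droplet protein, had a value of −0.42 ± 0.21 SE (edgeR adjusted p = 0.182).

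Plin2, the main perilipin of hepatocytes, had its knockout livers in the same order as Hsd17b13. It was at 243, 242 and 245 CPM in wild type and at 92.4, 117 and 213 CPM in knockout 1, 2 and 4. The wild-type livers were nearly equal and all 3 knockout livers lay below them, with knockout 4 near the wild-type range. The means were 243 ± 1.65 and 141 ± 63.4 CPM, and the difference missed the threshold (−0.79 ± 0.28 SE, interval −1.40 to −0.18, edgeR adjusted p = 0.0723). It passed with DESeq2 (−0.82, adjusted p = 0.0243), limma-voom (−0.88, adjusted p = 0.0427) and, in edgeR, by library totals (−0.96, adjusted p = 0.0424), without a low-count filter (−0.84, adjusted p = 0.00213) and without knockout 4 (−1.22, adjusted p = 0.00093). In the 5 fits that left out another library it did not pass (edgeR adjusted p from 0.131 to 0.204). The fit without a filter has a limit that is given below with Cideb. Hsd17b13 over Plin2 in raw counts was 1.79, 1.93 and 1.77 in the wild-type livers, against 1.81, 1.67 and 1.58 in knockout, ranges that overlapped (exact permutation p = 0.3, two-sided). Plin2 (ENSMUSG00000028494) lies on chromosome 4 from 86648386 to 86670060 on the minus strand, and 2.57% of its 50-base words are shared with Gm12551.

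Cideb, the CIDE protein of hepatocytes that serves lipoprotein lipidation and droplet fusion, was spread most widely of the 10 among the knockout livers. It was at 48.9, 51.8 and 50.1 CPM in wild type and at 3.24, 5.42 and 32.8 CPM in knockout 1, 2 and 4. The wild-type livers were close to each other, knockout 1 and 2 were far below them, and knockout 4 lay between. In raw counts it had 1029, 972 and 1078 reads in the wild-type livers, against 49, 101 and 545 in knockout 1, 2 and 4. The log2 fold change was −1.86 with an SE of 0.65 (interval −3.29 to −0.43), which missed the threshold (edgeR adjusted p = 0.0705). It passed with limma-voom (−2.58, adjusted p = 0.0148), with library totals (−2.03, edgeR adjusted p = 0.0409), with length and GC trends removed (−2.05, edgeR adjusted p = 0.0485), without a low-count filter (−1.91, edgeR adjusted p = 5.52e-15) and without knockout 4 (−3.53, edgeR adjusted p = 6.71e-05). It did not pass with DESeq2 (−1.89, adjusted p = 0.158) or in the 5 fits that left out another library (edgeR adjusted p from 0.111 to 0.187). With knockout 4 alone it was −0.62. In the fit without a low-count filter the SE was 0.226 for Cideb, 0.221 for Plin2, 0.219 for Plin5 and 0.217 for Pnpla2. In the main fit these were 0.645, 0.276, 0.355 and 0.182. Without the filter the SE thus hardly differed between these genes, so the adjusted p takes little account of the spread of Cideb among the knockout livers.

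The level of Cideb is uncertain, since its exons overlap those of Nop9 on the other strand and 70.2% of its 50-base words occur in Nop9. Whether reads were assigned by strand is not given in the sources used here, so reads in the shared bases could have been dropped or given to either gene. Nop9, a ribosome biogenesis factor named here after its values were seen, was at 18.7, 13.5 and 15.5 CPM in wild type and at 14.8, 17.5 and 20.5 CPM in knockout (0.14 ± 0.20 SE, edgeR adjusted p = 0.649). Cideb (ENSMUSG00000022219) lies on chromosome 14 from 55754050 to 55758458 on the minus strand.

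**Figure D3:**
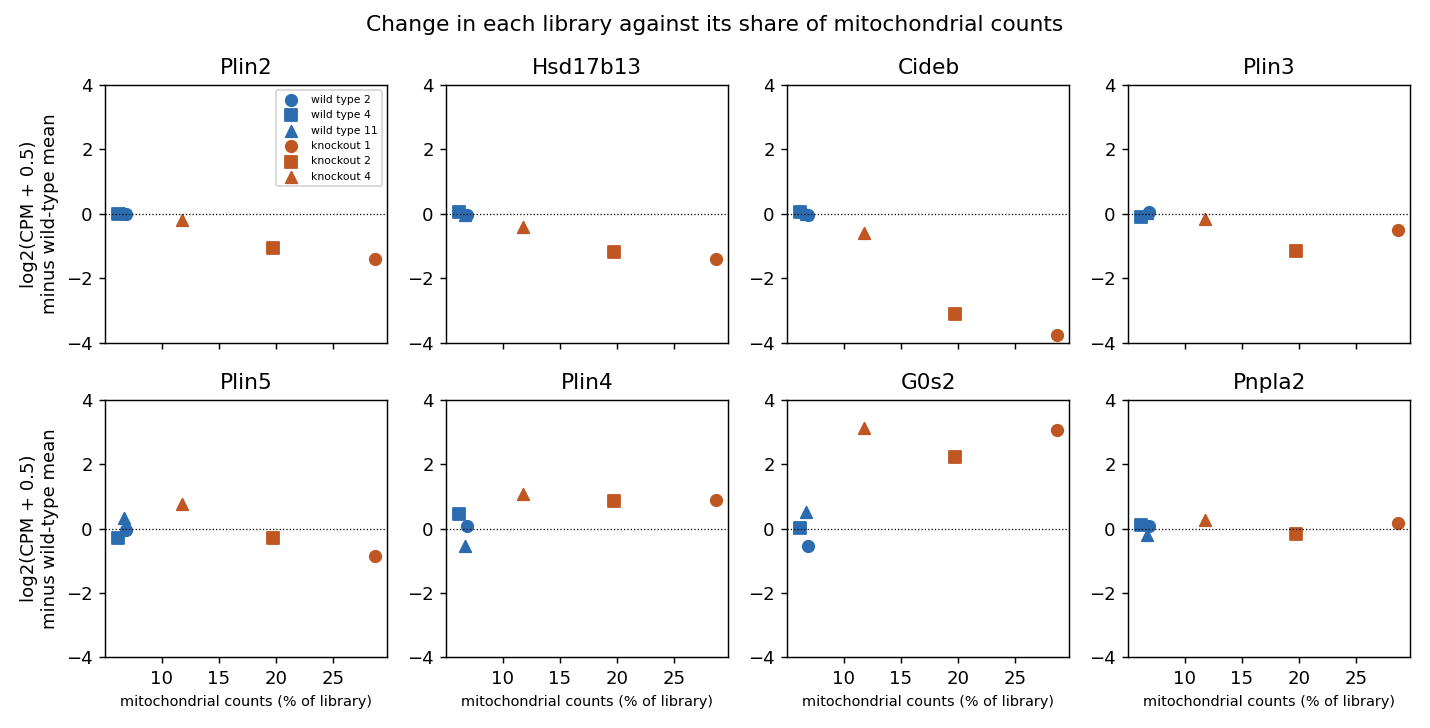
Change of 8 genes in each library, as log2(CPM + 0.5) minus the wild-type mean (vertical axis), against the percentage of the library's counts in mitochondrially encoded genes (horizontal axis); blue points are wild type and orange points knockout. Plin2, Hsd17b13, Cideb and Plin5 run lower from knockout 4 to 2 to 1 as that percentage goes from 11.8% to 28.6%, while G0s2 is 2.22 to 3.13 above the wild-type mean in all 3.

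In Plin2, Hsd17b13, Cideb and Plin5, knockout 1 was lowest and knockout 4 highest, the reverse order of their mitochondrial shares. Of these, only Hsd17b13 passed the test. In the rest of the 10 genes knockout 2 was lowest, again with knockout 4 highest. The order from knockout 1 up to 2 and 4 was thus seen in 4 of the 10 genes. It was seen in 20.4% of all tested genes and in 52.7% of the called genes that fell. Once the mitochondrial share entered the model, the estimates were 0.077 for Plin2, 0.21 for Cideb and −0.20 for Hsd17b13 (edgeR adjusted p = 0.951, 0.906 and 0.846), so the sign of the first 2 turned. The covariate separates the genotypes without overlap, so genotype and mitochondrial share cannot be told apart from these 6 livers. In bulk liver, fewer cells of a type and less RNA per cell cannot be told apart either.

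Plin3, a perilipin found on small new droplets in many tissues, was at 31.2, 28.2 and 30.9 CPM in wild type and at 21.1, 13.4 and 26.6 CPM in knockout. The groups were separate, but the difference of −0.57 ± 0.24 SE did not pass (edgeR adjusted p = 0.119), except by library totals (−0.76, edgeR adjusted p = 0.0455), without a low-count filter (−0.62, edgeR adjusted p = 0.0384) and without knockout 4 (−0.82, edgeR adjusted p = 0.0194). The fit without a filter has the limit given with Cideb. Plin5, the perilipin of oxidative tissues that holds ATGL and mitochondria at the droplet, was at 24.6, 20.4 and 31.9 CPM in wild type and at 13.8, 20.5 and 43.0 CPM in knockout 1, 2 and 4. The knockout livers thus spread to both sides of the wild-type range, and the log2 fold change was 0.0099 ± 0.35 SE (interval −0.77 to 0.79, edgeR adjusted p = 0.987). This value has no stable sign, being −0.15 by library totals and −0.59 without knockout 4 (adjusted p = 0.803 and 0.0982 in edgeR). Beside Plin2 in the same library it stood higher in knockout: Plin5 over Plin2 in raw counts was 0.101, 0.0842 and 0.130 in the wild-type livers, against 0.150, 0.174 and 0.202 in knockout (exact permutation p = 0.1, the smallest possible).

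Plin4 and Cidec are better known from fat tissue and were rare here. Plin4, whose long repeated helix coats new droplets in adipocytes, had 30, 37 and 16 raw counts in the wild-type livers, against 43, 52 and 55 in knockout, or 1.42, 1.97 and 0.743 CPM against 2.85, 2.79 and 3.31 CPM. The groups did not overlap, but the count of 16 has an exact Poisson 95% interval of 9.15 to 26.0, for counting error only. The log2 fold change was 1.12 ± 0.38 SE (edgeR adjusted p = 0.0663), and it passed with limma-voom (1.22, adjusted p = 0.0454) and without a low-count filter (1.06, edgeR adjusted p = 0.043), but not with DESeq2 (1.08, adjusted p = 0.0662). Cidec, which drives fusion into 1 large droplet in fat cells and is induced in fatty liver, was at 3.32, 4.0 and 2.37 CPM in wild type and at 2.91, 2.85 and 4.69 CPM in knockout. Its groups overlapped (0.11 ± 0.32 SE, interval −0.59 to 0.82, edgeR adjusted p = 0.834), and its sign turned to −0.071 by library totals.

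Of 10 adipocyte markers, Lep was at 0 in all libraries and Adipoq, Plin1, Cidea and Retn had at most 2 counts in any library and Slc7a10 at most 4. Cfd had 4, 3 and 9 counts in the wild-type livers, against 22, 39 and 9 in knockout, and was too low to be tested. Fabp4 was at 8.29 ± 2.32 CPM in wild type and 12.6 ± 4.23 CPM in knockout (0.60 ± 0.28 SE, edgeR adjusted p = 0.161), and Lipe at 9.21 ± 2.47 and 13.9 ± 2.15 CPM (0.59 ± 0.23 SE, edgeR adjusted p = 0.106). With Car3 as the third, the adipocyte markers that could be tested gave 0 rises and 0 falls. The list's sum (2694 to 2952 CPM in wild type, 1863 to 2707 CPM in knockout) was mostly Car3, which hepatocytes also express, and the part of these markers' RNA in the levels of Plin4 and Cidec was not tested. The 12 markers of stellate cells, the other droplet-rich cell of the liver, also gave 0 rises and 0 falls, with sums of 151 to 271 CPM in wild type and 225 to 332 CPM in knockout.

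**Figure D4:**
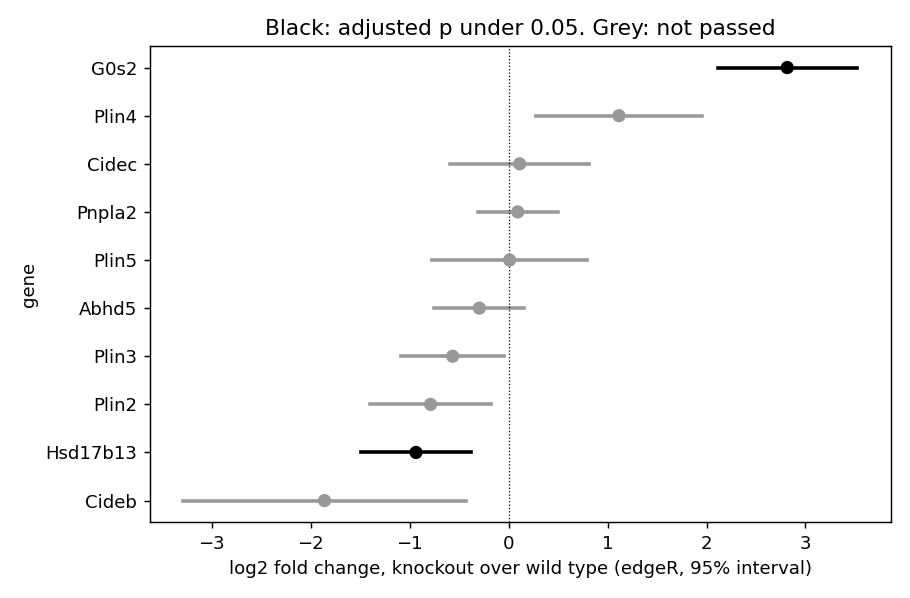
Log2 fold change, knockout over wild type, of each of the 10 genes with its 95% interval from edgeR (n = 3 livers per genotype); black marks an adjusted p under 0.05 and grey marks genes that did not pass. G0s2 stands at 2.82 and Hsd17b13 at −0.94, and the interval of Cideb, from −3.29 to −0.43, is the widest of the 10.

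Plin3, Plin4 and Plin5 share a stretch of chromosome 17 on the minus strand. Plin4 (ENSMUSG00000002831) runs from 56100591 to 56109803 and Plin5 (ENSMUSG00000011305) from 56111601 to 56117596, only 1797 bases apart, while Plin3 (ENSMUSG00000024197) runs from 56277476 to 56292873, a further 159879 bases away. The ends of Plin4 and of Hdgfl2, on the other strand, overlap by a few exon bases. Cidec (ENSMUSG00000030278) lies on chromosome 6 from 113424634 to 113435760 on the minus strand. All 10 are annotated as protein-coding.

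To set the genes beside each other, CPM was divided by exon length in kilobases. In wild type the level per kb was 207 ± 8.73 for Hsd17b13, 69.3 ± 0.47 for Plin2, 33.8 ± 1.0 for Cideb, 30.2 ± 10.7 for G0s2 and 25.3 ± 2.74 for Pnpla2. Lower down came Plin5 at 12.3 ± 2.79, Plin3 at 7.95 ± 0.44, Abhd5 at 3.51 ± 0.34, Cidec at 1.74 ± 0.44 and Plin4 at 0.239 ± 0.11 CPM per kb. The libraries of Cideb and G0s2, and those of G0s2 and Pnpla2, overlapped, and the other neighbours in this order did not. In knockout G0s2 came first at 213 ± 65.9 CPM per kb, with a range that overlapped that of Hsd17b13 at 108 ± 41.5. Within each knockout liver G0s2 was the higher: 245, 137 and 257 in knockout 1, 2 and 4, against 77.6, 90.9 and 155. By its mean Cideb went from rank 3 to rank 6, but it was at 2.18, 3.64 and 22.0 in knockout 1, 2 and 4. The knockout level of G0s2 per kb was thus close to the wild-type level of Hsd17b13, the highest of the 10 there.

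Within the perilipins, Plin2 made up 77.3%, 79.7% and 74.8% of the Plin2 to Plin5 level per kb in wild type 2, 4 and 11, against 67.4%, 70.8% and 68.2% in knockout 1, 2 and 4. Plin5 made up 13.2%, 11.3% and 16.4% in the wild-type livers, against 17.0%, 20.7% and 23.2% in knockout. The shares of both genes were separate between genotypes, and Plin2 stayed the main perilipin in every liver. Plin4 ran from 0.138% to 0.395% in wild type and from 0.646% to 1.26% in knockout.

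**Figure D5:**
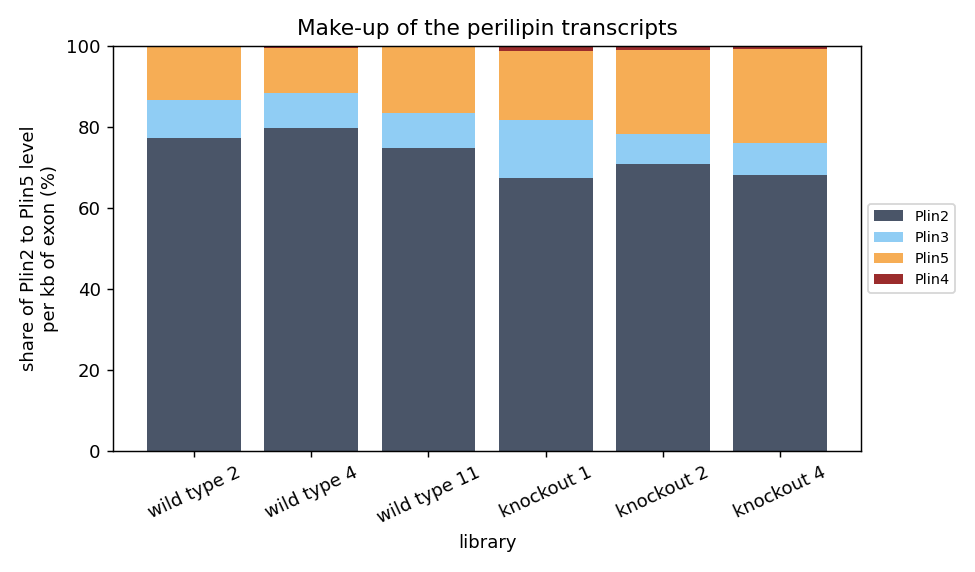
Share of each of the 4 perilipin genes in their summed level per kb of exon, in percent, with 1 bar per library and each bar summing to 100%. Plin2 takes 74.8% to 79.7% in wild type and 67.4% to 70.8% in knockout, and Plin5 takes 11.3% to 16.4% and 17.0% to 23.2%.

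Genes of the same processes were read from 6 fixed lists, with 146 tested genes in all beside the 10. Of these, 10 rose and 17 fell, which is 18.5% against the 17.0% over all tested genes, and their median log2 fold change was −0.12. By list the share that passed in either direction ran from 12.5% to 23.8%, and how it differed from the share over all genes was not tested. In the model with the mitochondrial share 0 rose and 0 fell, with 13 of them at an unadjusted p under 0.05 in edgeR. Scaling by library totals put the median over all genes at −0.16, and with it 2 of the 146 rose and 21 fell; over the whole table the split was then 690 rises to 1566 falls, where TMM gave 1165 to 1103. The count of rises was 0 without wild type 2, 0 without wild type 4 and 0 without knockout 1, 3 without knockout 2, 6 without wild type 11 and 15 without knockout 4, so it rests on which libraries are used. The count of falls was 10 without wild type 4, 10 without knockout 1 and 11 without knockout 2.

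Of 21 other droplet surface proteins that were tested, 2 rose and 3 fell, or 23.8% beside the 17.0% over all tested genes. Aup1, a droplet protein that also serves the degradation of endoplasmic reticulum proteins, rose from 102 ± 24.4 to 197 ± 30.6 CPM (0.94 ± 0.21 SE), and Mettl7b, a methyltransferase-like droplet protein, rose from 643 ± 107 to 1033 ± 110 CPM (0.68). Vps13c, a lipid transfer protein at droplet contacts, fell from 22.9 ± 8.14 to 5.78 ± 1.06 CPM (−1.99 ± 0.29 SE), and Pcyt1a, the rate-limiting enzyme of phosphatidylcholine synthesis that binds growing droplets, fell from 59.5 ± 9.01 to 17.1 ± 9.89 CPM (−1.80). Snx14, a tether between the endoplasmic reticulum and droplets, fell as well (−0.95).

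Of 23 other lipases and cofactors, 1 rose and 3 fell, or 17.4% beside the 17.0% over all tested genes. Ces1d, a carboxylesterase that mobilises hepatic triglyceride, fell from 870 ± 261 to 254 ± 78.8 CPM (−1.77 ± 0.28 SE), and its relative Ces1g fell from 219 ± 18.6 to 104 ± 15.6 CPM (−1.08). These belong to a family of near copies, so reads may be split or dropped between them. Lipa, the acid lipase of the lysosome, fell from 182 ± 22.0 to 107 ± 6.46 CPM (−0.76), and Pnpla6, a phospholipase, rose from 17.5 ± 1.64 to 28.3 ± 6.95 CPM (0.69).

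In the list of droplet formation at the endoplasmic reticulum, 2 rose and 3 fell among 25 tested (20%, beside 17.0% over all tested genes). Bscl2, the gene of seipin that marks the sites of droplet budding, rose from 41.0 ± 2.86 to 69.6 ± 8.01 CPM (0.76 ± 0.17 SE), and Fitm1, a fat storage-inducing membrane protein, rose from 32.3 ± 6.98 to 54.4 ± 12.4 CPM (0.75). Gpam, the first acyltransferase of triglyceride synthesis, fell to 12.6 ± 3.13 from 83.3 ± 14.8 CPM (−2.72 ± 0.23 SE), with knockout levels of 15.8, 9.50 and 12.6 CPM. Atl3, an atlastin that fuses tubules of the endoplasmic reticulum (−1.04), and Mctp2 (−1.05) fell too.

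The list of cAMP and protein kinase A control of lipolysis had 1 rise and 4 falls among 28 tested (17.9%, beside 17.0% over all tested genes). This list also held genes of insulin and AMP-activated kinase signals, which did not pass. The phosphodiesterase genes Pde4d (from 3.08 ± 1.07 to 0.354 ± 0.26 CPM, −3.09 ± 0.56 SE) and Pde4b (−1.04), the adenylyl cyclase gene Adcy9 (−1.60) and Gnas, which encodes the stimulatory G protein (−1.76), fell. Gnas was at 2.78, 3.60 and 16.6 CPM in knockout 1, 2 and 4, again nearest to wild type in knockout 4. Adrb3, the beta-3 adrenergic receptor, rose from 2.74 ± 0.61 to 7.64 ± 3.83 CPM (1.47).

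Among 25 transcription factors that control droplet genes, 3 rose and 2 fell (20%, beside 17.0% over all tested genes). Ppara, an activator of Plin2, Plin5 and G0s2 in liver, fell from 69.5 ± 22.3 to 23.5 ± 2.23 CPM (−1.57 ± 0.24 SE), and Ncor1, a corepressor, fell by 0.61 on the log2 scale. Usf2 (0.81), Usf1 (0.66) and Cebpb (0.74) rose, and the log2 fold change of Pparg, the factor that drives fat storage, was −0.36 ± 0.25 SE (edgeR adjusted p = 0.327). Of 24 genes of droplet autophagy and of the breakdown of droplet proteins, 1 rose and 2 fell (12.5%). These were Tfeb, a regulator of lysosomal genes (0.75), Stub1, a ubiquitin ligase (−1.04), and Becn1, an autophagy starter (−0.91).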

How the data were processed

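RNA was measured in livers of 3 wild-type and 3 knockout mice. The authors deposited raw counts per gene, whole numbers with 1 column per liver and no normalization. Per the submitters' processing notes, the build was mm10. The aligner, counting program, annotation and strandedness were not given in the sources used here, and reads that match several genes may have been dropped or split. All 6 columns matched a sample title, and 0 other columns were left aside.

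Counts were tested over the whole table in R 4.3.3 with edgeR 4.0.16 (quasi-likelihood F test, TMM scaling, filterByExpr, two-sided, Benjamini-Hochberg adjustment over all 13304 tested genes, threshold 0.05). The SE is the size of the log2 fold change over the root of F. DESeq2 1.42.0 and limma 3.58.1 (voom) served as alternatives. Coordinates, exon lengths and 50-base words came from GENCODE M21, which matched 13295 tested genes, and promoters came from RefSeq. As a check for a library deposited more than once, counts of libraries of 1 genotype were compared, and they differed by 21.0 to 171 chi-square units per degree of freedom. The labels do not say that the livers came from separate litters, so p-values measure the spread between these livers.

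The 10 genes and the 6 lists were chosen with earlier results of these data known. The text names Rtn4, the 10 genes, up to 6 called genes of each list by smallest p, and neighbouring genes. It also names the 5 genes whose log2 CPM had the highest Pearson correlation with G0s2 and with Hsd17b13. For that ranking, genes with a mean under 10 CPM or with a clone or pseudogene name were left out. Nop9, Hsd17b11, Pparg, Car3, Alb, Serpina1c, Cps1 and the named adipocyte markers were added after their values were seen.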

Additional observations from a re-analysis of the deposited data

How the results depend on the processing

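The rise of G0s2 passed in 16 of 17 alternatives (log2 fold change 2.57 to 3.10), and Abhd5 passed in 0 of 17. Of the members, 1 rose and 1 fell in the main analysis. With limma-voom 2 rose and 3 fell, without a low-count filter 2 rose and 4 fell, and with the mitochondrial share as a covariate 0 rose and 0 fell. The count of falls was 4 by library totals, 2 with DESeq2, 2 with length and GC trends removed (chosen after seeing the data) and 0 with knockout 4 alone. Leaving out 1 library gave 0 to 4 falls and 1 rise each time. Over all tested genes, 1148 rose and 1259 fell of 13304 with limma-voom. Without a filter, a fit with the limit given with Cideb, 1498 rose and 1832 fell of 23915. Falls over all genes were 1566 of 13304 by library totals, 1440 of 14388 with DESeq2 and 1219 of 13295 with the trends removed. Without knockout 4, where 4 members fell, they were 2161 of 13776. How the members differed from these shares was not tested. Over all genes 2268 were called, 0 with the covariate and 25 with knockout 4 alone, and 630 to 4046 when 1 library was left out. Pathway rises went from 10 to 2 by library totals, 0 with the covariate, 4 with the replicate block, 0 with knockout 4 alone and 5 with length and GC trends removed, and 0 to 15 when 1 library was left out. Pathway falls went from 17 to 0 with the covariate and 1 with knockout 4 alone, and 10 to 25 when 1 library was left out.

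Signs turned in 5 members, with the cause not tested: Plin2 to 0.077 and Cideb to 0.21 with the covariate; Cidec to −0.071 by library totals and −0.059 with length and GC trends removed; Pnpla2 to −0.099 by library totals, −0.044 with the replicate block and −0.052 with length and GC trends removed. Plin5 went to −0.15 by library totals, −0.015 with DESeq2, −0.13 with limma-voom, −0.038 without a filter and −0.18 with length and GC trends removed. Without 1 library at a time, Plin5 ran from −0.59 to 0.31, Cidec from −0.18 to 0.28 and Pnpla2 from −0.010 to 0.21.

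The numbers 2 and 4 occur in both genotypes, but nothing in the labels makes them pairs. Same-numbered livers had correlations of their deviations from the group means of −0.060 and 0.067. The replicate block fits a level for each number, so livers whose number occurs in only 1 genotype add nothing to the genotype difference. The difference thus rests on the livers numbered 2 and 4, here and wherever the replicate block is named. With the replicate block 1686 genes were called, and of the members 1 rose and 1 fell. The log2 fold change of Hsd17b13 was −0.82 (edgeR adjusted p = 0.0635) and that of Cideb −1.86 (edgeR adjusted p = 0.00118). Hsd17b13 was thus not called and Cideb was, but from these livers only, so neither change of call holds for all livers. Plin4, with 16 to 55 counts per library, is limited by depth.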

Other observations

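Genes next to the 10 on their chromosomes were read as well, 3 on each side. Of 30 tested neighbours, 2 rose and 3 fell, a share near the 17.0% that passed over all tested genes. Tnfaip8l1, 3 genes from Plin5, rose from 12.5 to 25.6 CPM (1.04 ± 0.20 SE), and Pidd1, near Pnpla2, rose from 1.89 to 4.25 CPM. Dhrs1, a dehydrogenase gene near Cideb, fell from 93.2 to 58.8 CPM (−0.66), Cd151, a tetraspanin gene near Pnpla2, fell from 42.4 to 21.9 CPM (−0.95), and Chaf1a, near Plin4, fell at under 1 CPM. Hsd11b1, the cortisone reductase gene beside G0s2, was at 840 CPM in wild type and 881 CPM in knockout (0.070 ± 0.18 SE, edgeR adjusted p = 0.817). Lrg1, beyond Plin5, was at 270 and 293 CPM (0.12 ± 0.24 SE, edgeR adjusted p = 0.763).

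Over the 6 libraries, the genes whose log2 CPM was most like that of G0s2 were Rps19bp1, Psmb6, Sec61g, Eloc and Sod1 (Pearson correlation 0.991 to 0.995), with log2 fold changes of 0.44 to 0.70 against 2.82 for G0s2. Most like Hsd17b13 were Coasy, Pgk1, Copb2, Ssu72 and Eef2 (Pearson correlation 0.999 each), with log2 fold changes of −1.82 to −1.12. Genes with a mean under 10 CPM or with a clone or pseudogene name were left out of both rankings. These are descriptions over 6 libraries that form 2 genotype groups and share their scaling.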
